A study of Rattus norvegicus with 4 samples.

Results

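In cultures of rat Schwann cells (SCs), which form the myelin of peripheral nerves, the deposited gene counts hold rows for miRNA genes beside those for protein-coding genes. Rows were taken where the name begins with Mir or Mirlet followed by a digit and where at least 10 raw counts were present in at least 2 of the 4 samples. This rule kept 90 of the 539 miRNA rows, out of 17949 rows in the table. Of the other miRNA rows, 298 had 0 counts in every sample and 151 had counts below the minimum. The minimum does not use the contrast between the groups, but 5 of the rows passed it through the samples of 1 group only: Mir93 through Lenti-AS, and Mir421, Mir140, Mir504 and Mir150 through Lenti-GFP. The row Mir155hg matches the name rule, although it names the host transcript of miR-155 and not a hairpin, and Mir3584&1 is a copy of a row whose reads the counting may have split.

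The cells were primary SCs from rat sciatic nerve, cultured with serum, forskolin and heregulin-β1, and all 4 samples were infected with a lentivirus for 48 h. Lenti-AS (n = 2) expressed the Egr2-AS, an antisense RNA from the locus of the myelin transcription factor EGR2, from a vector with the red reporter DsRed-Express2. Lenti-GFP (n = 2) was the control and carried AcGFP1, so the groups also differed in their reporter. The comparison asked which transcripts change when SCs express the Egr2-AS. The methods speak of biological replicates, without saying whether the 2 samples of a group came from separate animals or cultures, and p-values measure the spread between these samples.

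A miRNA gene is transcribed as a long primary transcript, either from its own promoter or within the intron of a host gene. In the nucleus the Drosha-Dgcr8 complex cuts a hairpin out of it, Xpo5 exports the hairpin, and Dicer trims it to the mature miRNA, which guides an Argonaute protein to target mRNAs mainly through its seed, bases 2 to 8. In SCs, Dicer-dependent miRNAs are needed for myelination. The libraries here were made from total RNA and sequenced as 50 bp read pairs, so a count is a read pair lying over a hairpin, in the primary or host transcript. Mature miRNAs were not measured, and in bulk samples fewer cells of a type and less RNA per cell cannot be told apart.

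Reads in these rows covered windows of 59 to 141 bases. The hairpins of 4 rows on which the results turn are shown with the mature miRNA in capitals, from RefSeq (rat build GRCr8), whereas the counts were made on rn6. Mir24-2 lies at chr19:40859455-40859562 on the minus strand, Mir3074 at chr17:1818648-1818764 on the plus strand, Mir22 at chr10:60805331-60805425 and Mir6326 at chr10:60805078-60805188, both on the plus strand.
Mir24-2: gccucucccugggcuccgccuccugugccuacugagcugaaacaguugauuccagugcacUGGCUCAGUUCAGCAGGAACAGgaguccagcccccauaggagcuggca
Mir3074: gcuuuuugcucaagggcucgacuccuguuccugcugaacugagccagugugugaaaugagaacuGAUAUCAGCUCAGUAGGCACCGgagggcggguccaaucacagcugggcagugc
Mir22: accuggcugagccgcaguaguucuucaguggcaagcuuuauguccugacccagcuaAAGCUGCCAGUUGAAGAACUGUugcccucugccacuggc
Mir6326: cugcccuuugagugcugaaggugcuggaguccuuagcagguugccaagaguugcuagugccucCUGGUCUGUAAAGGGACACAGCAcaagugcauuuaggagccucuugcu

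Mature sequences of the let-7 family follow with the seed in capitals, because 8 of the 90 rows share this seed and the family includes the row with the smallest p-value. Mirlet7c1 and Mirlet7c2 give the same mature let-7c.
let-7a-5p: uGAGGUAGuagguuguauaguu
let-7b-5p: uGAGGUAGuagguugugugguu
let-7c-5p: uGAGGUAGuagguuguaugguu
let-7d-5p: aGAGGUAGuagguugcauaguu
let-7g-5p: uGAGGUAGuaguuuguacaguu
let-7i-5p: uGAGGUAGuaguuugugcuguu
miR-98-5p: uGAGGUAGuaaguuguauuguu

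Rows of the miR-23, miR-27 and miR-24 genes stand at paired loci whose mature products are nearly identical, and the remaining sequences belong to rows at the head of the list by p-value.
miR-23a-3p: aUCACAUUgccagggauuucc
miR-23b-3p: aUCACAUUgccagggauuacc
miR-27a-3p: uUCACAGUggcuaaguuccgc
miR-27b-3p: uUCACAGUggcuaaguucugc
miR-24-3p: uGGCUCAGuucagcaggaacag
miR-93-5p: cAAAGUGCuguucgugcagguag
miR-30e-5p: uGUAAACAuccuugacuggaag

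Counts over the 90 rows together were 9026 and 8822 in the Lenti-GFP samples and 7417 and 6946 in the Lenti-AS samples, from total counts of 74024323 to 96185890 per sample. As a share of the sample these sums were 0.00960% and 0.00917% in Lenti-GFP and 0.00852% and 0.00938% in Lenti-AS, so the groups overlapped. Mean raw counts per row ran from 8.25 (Mir93) to 569 (Mir3074) with a median of 22.3, against a median of 1882 over all genes tested. The precision followed the counts, and log2 fold changes had a median standard error of 0.42 over the miRNA rows and 0.098 over all genes. Sox10 and the other Schwann cell markers measured were present, with a summed level of 6570 to 6620 normalised counts (CPM, scaled to library size) in Lenti-GFP and 7160 to 8410 in Lenti-AS, but the Lenti-AS samples differed from each other. Fibroblast markers summed to 863 to 1000 CPM in Lenti-GFP, 2480 CPM in Lenti-AS replicate 1 and 419 CPM in Lenti-AS replicate 2. This sum was almost wholly Col1a1 and Col1a2, with Col1a1 at 841 and 721 CPM in Lenti-GFP and 2131 and 290 CPM in Lenti-AS. Dcn, Thy1 and Lum had at most 3 counts per sample, and Pdgfra and Pi16 had 3.09 to 5.24 CPM. Globin genes reached 3000 CPM in Lenti-AS replicate 2 against 3.11 to 6.61 CPM elsewhere. Macrophage markers summed to 3.52 to 3.72 CPM in Lenti-GFP and 4.27 to 4.52 CPM in Lenti-AS. Endothelial markers summed to 20.5 to 20.7 CPM and 15.1 to 15.8 CPM, and neuronal markers to 48.6 to 50.2 CPM and 43.0 to 45.6 CPM. These sums were apart between the groups, but the last 2 rested almost wholly on 1 gene each. Tek had 19.8 and 20.2 CPM in Lenti-GFP and 15.3 and 14.7 CPM in Lenti-AS, whereas Pecam1 and Kdr overlapped. Tubb3 had 50.0 and 48.4 CPM in Lenti-GFP and 42.8 and 45.5 CPM in Lenti-AS. The neuronal markers Rbfox3, Snap25, Syt1 and Stmn2 had at most 9 counts per sample. Egr2, from whose locus the antisense RNA comes, had 49.2 and 42.1 CPM in Lenti-GFP and 61.2 and 54.0 CPM in Lenti-AS, a log2 fold change of 0.33 ± 0.11 (SE, edgeR adjusted p = 0.152). The part of these lists in the results for miRNA rows was not tested. Values without 1 sample are given where they change a call, and for some of the rows where they change only the direction. With 1 Lenti-AS sample left out, the remaining one is assumed to vary like the Lenti-GFP pair, and 6.76% (without Lenti-AS replicate 1) and 12.2% (without Lenti-AS replicate 2) of all genes were then called, so calls made there rest on a single Lenti-AS sample.

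No call was made among the 90 rows when Lenti-AS was set against Lenti-GFP with the quasi-likelihood test of edgeR (Benjamini-Hochberg adjusted p under 0.05 over all 12446 genes tested, and a fold of at least 1.3), and the smallest adjusted p was 0.146. By the same rule 1.98% of all genes were called, 1.31% higher and 0.667% lower. At an unadjusted p under 0.05, 6 rows passed (3 higher and 3 lower), or 6.67%, against 21.8% of all genes and 9.96% of the 3966 genes with a mean count no higher than that of Mir3074. Only 13 of those 3966 genes were called, so calls were rare at such counts. Without the 5 rows that passed the minimum through 1 group, 5 of 85 did. DESeq2 called 5.04% of all genes and none of these rows. It gave no adjusted p for 71 of them, and 1 had an unadjusted p under 0.05. For 22 rows the 95% interval of the difference lay within a 2-fold change in either direction, and for the other rows a change of that size was not excluded at this depth.

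Fitted log2 fold changes (Lenti-AS over Lenti-GFP) had a median of -0.15 over the rows and 0.01 over all genes, and 54 rows lay below 0 and 36 above, which is 60.0% below against 48.7% of all genes. The 3966 genes with a mean count no higher than that of Mir3074 had a median of 0.11. Without the 5 rows that passed the minimum through 1 group, 50 of 85 lay below 0 and the median was -0.12. Without Lenti-AS replicate 1 the median of the 90 rows was -0.01 and 45 lay below 0, so the lean below 0 rests on that sample. Among the 30 rows with a mean of at least 50 counts, 22 were below 0 (median -0.18), and among the 16 with at least 200 counts, 11 were below 0 (median -0.12). These 16 ran from -0.36 to 0.46, whereas the 35 rows with a mean under 20 counts ran from -1.43 to 2.32. The rows at the ends of the latter range, Mir421 and Mir93, each passed the minimum through 1 group only. The 2 Lenti-GFP samples did not overlap the 2 Lenti-AS samples in 38 rows (42.2%, 13 higher and 25 lower), against 54.9% of all genes (27.7% higher and 27.2% lower). Without the 5 rows it was 33 of 85 (38.8%). In 13 rows the Lenti-GFP replicates were more than 2-fold apart, and in 17 rows the Lenti-AS replicates were.

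**Figure D1:**
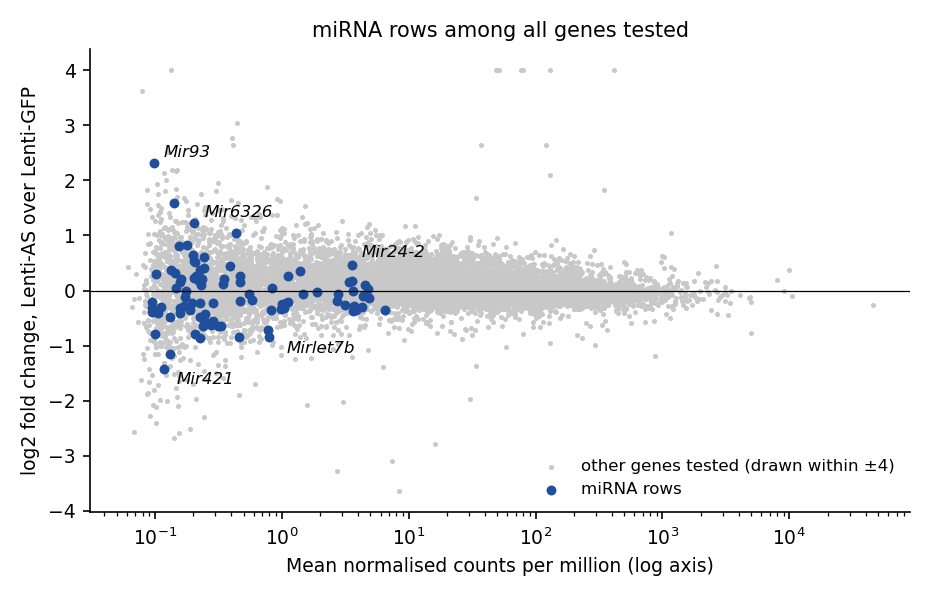
Each dot is a gene tested, with its mean normalised count (CPM) on a log axis and its log2 fold change, Lenti-AS over Lenti-GFP; miRNA rows are in blue and grey dots beyond ±4 are drawn at the edge. The miRNA rows lie at the low-count end, where fold changes spread widely, and reach from -1.43 (Mir421) to 2.32 (Mir93). Mir421 passed the count minimum through Lenti-GFP only and Mir93 through Lenti-AS only.

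Levels of the rows differed widely. Per kilobase of hairpin, so that rows of unequal length can be compared, Mir3064 stood at 63.9 CPM, Mir1896 at 60.4, Mir92b at 57.2 and Mir3074 at 55.2, against a median of 2.91 over the rows with a known length. Mir3074 had 683 and 680 counts in the Lenti-GFP samples and 416 and 496 in the Lenti-AS samples, or 7.25 ± 0.10 CPM against 5.67 ± 1.31 CPM (SD, n = 2 each). The groups did not overlap, and the log2 fold change was -0.35 ± 0.18 (SE, edgeR adjusted p = 0.311). It was -0.13 without Lenti-AS replicate 1 (edgeR adjusted p = 0.563) and -0.61 without Lenti-AS replicate 2, where 12.2% of all genes and this row were called (edgeR adjusted p = 0.0028).

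Mir22, whose mature miRNA is abundant in many tissues, had 447 and 367 counts in Lenti-GFP and 297 and 252 in Lenti-AS. Its groups did not overlap, at 4.33 ± 0.65 CPM against 3.37 ± 0.03 CPM (SD, n = 2 each), and its log2 fold change of -0.36 ± 0.17 did not pass the test (edgeR adjusted p = 0.277). Mir1896 had 485 and 479 counts in Lenti-GFP and 378 and 376 in Lenti-AS, and after scaling for depth its log2 fold change was -0.14 ± 0.15 (edgeR adjusted p = 0.612). Mir92b, a relative of the miR-17 to miR-92 genes, had 467, 418, 423 and 356 counts in Lenti-GFP 1 and 2 and Lenti-AS 1 and 2, and a log2 fold change of 0.02 with a 95% interval from -0.33 to 0.38. Its samples overlapped, and the interval lay within a 2-fold change in either direction.

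Mir3064 had 470 and 416 counts in Lenti-GFP, but 245 and 368 in Lenti-AS. The Lenti-AS samples were apart, and Lenti-AS replicate 2, at 4.90 CPM, fell between the Lenti-GFP samples at 5.03 and 4.39 CPM. Its log2 fold change of -0.30 (edgeR adjusted p = 0.562) turned to 0.06 without Lenti-AS replicate 1 and was -0.75 without Lenti-AS replicate 2, where it was called from a single Lenti-AS sample. A like dependence on 1 sample was found for Mir1949, with 384, 387, 388 and 144 counts in the same order, with a log2 fold change of -1.10 without Lenti-AS replicate 1, where it was called from the other Lenti-AS sample alone, and of 0.11 without Lenti-AS replicate 2.

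**Figure D2:**
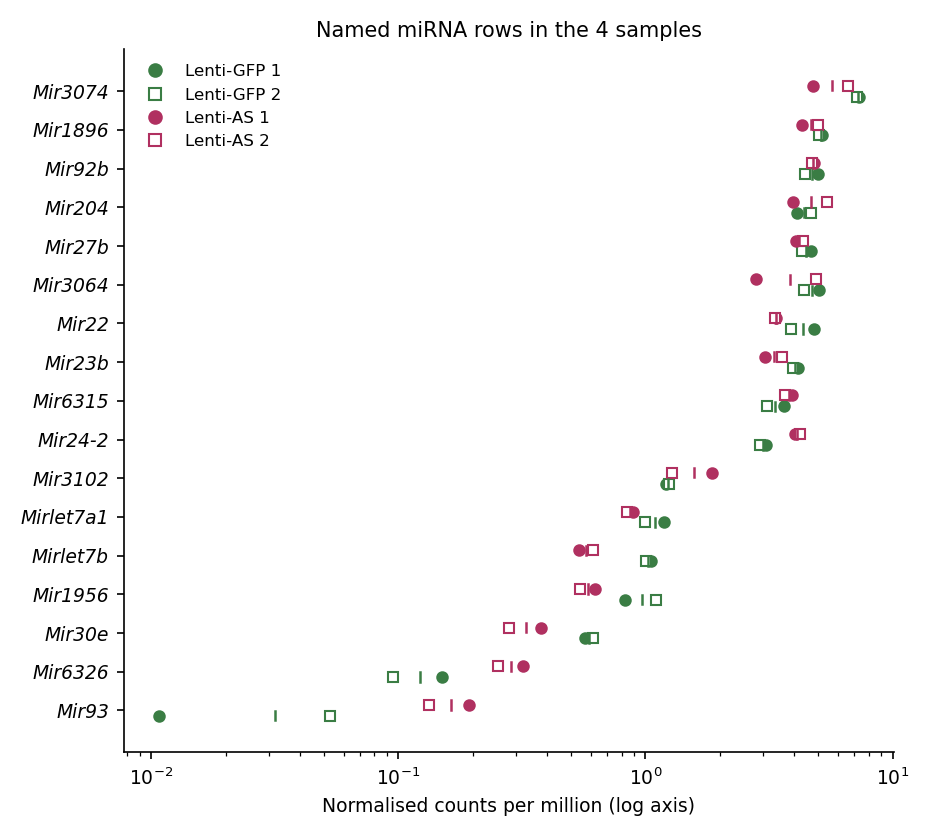
Normalised counts (CPM) (log axis) of the 17 rows named for their level, difference or p-value, in each of the 4 samples; green is Lenti-GFP, red is Lenti-AS, circles and squares are replicates 1 and 2, and short vertical lines are group means. Lenti-GFP and Lenti-AS are apart in Mirlet7b and in Mir24-2, with close replicates, and overlap in Mir92b, Mir204, Mir27b and Mir3064.

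Mirlet7b, a let-7 gene, had the smallest p-value of the 90 rows. It had 98 and 95 counts in Lenti-GFP and 47 and 46 in Lenti-AS, which is 1.03 ± 0.03 CPM against 0.574 ± 0.053 CPM (SD, n = 2 each). All Lenti-AS values lay below all Lenti-GFP values, and the replicates of each group were close. The fitted log2 fold change was -0.84 ± 0.26, with a 95% interval from -1.47 to -0.21 and an edgeR adjusted p of 0.146, which missed the threshold. Leaving out any 1 sample kept the value between -0.93 and -0.74, and the other settings gave adjusted p-values from 0.0744 to 0.234.

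The other rows with the let-7 seed did not share a direction. Mirlet7i, the row of the family with the most counts, had 177 and 184 counts in Lenti-GFP and 168 and 138 in Lenti-AS, a log2 fold change of -0.03 with a 95% interval from -0.49 to 0.42. Mirlet7a1 had 111, 94, 78 and 63 counts and a log2 fold change of -0.33 ± 0.25 (edgeR adjusted p = 0.465). Mirlet7c2, the neighbour of Mirlet7b on chromosome 7 and the next annotated gene before it, had 16, 13, 17 and 22 counts and a log2 fold change of 0.64 ± 0.45. Mirlet7c1, Mirlet7d, Mirlet7g and Mir98 had 9 to 43 counts per sample and log2 fold changes from -0.62 to 0.10. Of the 8 rows 6 were below 0 and 2 above, with a median of -0.13, and their summed level was 5.20 and 5.26 CPM in Lenti-GFP and 4.36 and 4.55 CPM in Lenti-AS. The signs of Mirlet7c1, Mirlet7d, Mirlet7g and Mir98 depended on which samples were kept, and each changed when a single sample was left out.

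**Figure D3:**
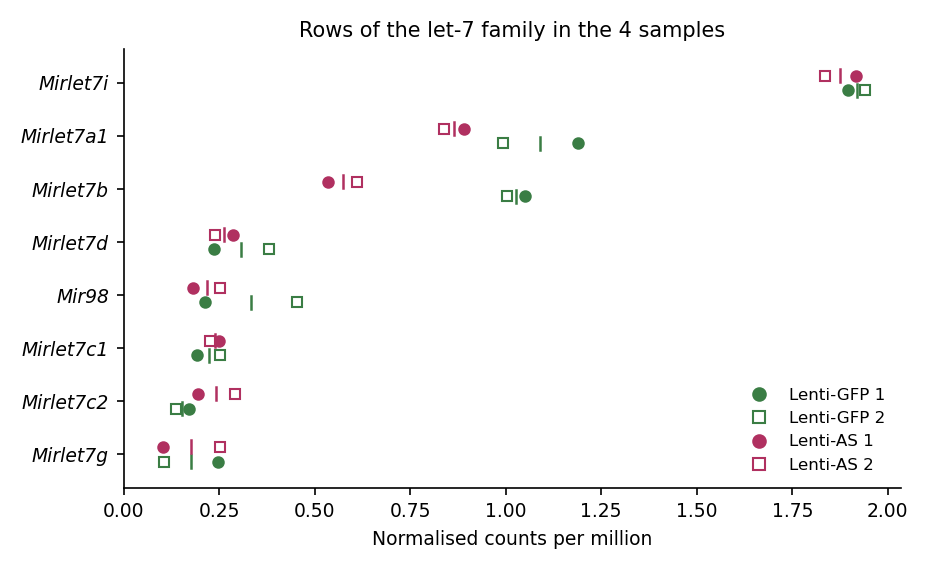
Normalised counts (CPM) of the 8 rows whose mature miRNA has the let-7 seed, in each of the 4 samples, with group means as short vertical lines. Mirlet7b is at 1.05 and 1.00 in Lenti-GFP and at 0.536 and 0.612 in Lenti-AS, whereas Mirlet7i lies between 1.84 and 1.94 in all samples.

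Mir24-2, which encodes miR-24, was the row with the most counts among those that passed an unadjusted p of 0.05. It had 287 and 275 counts in Lenti-GFP and 353 and 316 in Lenti-AS, or 2.99 ± 0.12 CPM against 4.12 ± 0.12 CPM (SD, n = 2 each). Its groups did not overlap, and the fitted fold was 1.38, a log2 fold change of 0.46 ± 0.15 with a 95% interval from 0.09 to 0.83 (edgeR adjusted p = 0.166). Mir23a and Mir27a, which precede it at the same locus, had 112, 79, 88 and 108 counts and 25, 37, 46 and 28 counts, with log2 fold changes of 0.26 ± 0.31 and 0.45 ± 0.38. In both rows the groups overlapped, and Mir23a stood at -0.02 without Lenti-AS replicate 2. The other rows with at least 50 counts and higher, separate Lenti-AS samples were Mir3102, with 113, 118, 163 and 96 counts and a log2 fold change of 0.36 ± 0.26 (0.06 without Lenti-AS replicate 1 and 0.60 without Lenti-AS replicate 2), and Mir6315, with 338, 293, 343 and 276 counts and a log2 fold change of 0.18 ± 0.16. Neither passed the test.

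The second locus of this family lies within Npepo (Aopep in RefSeq), which encodes an aminopeptidase, and its rows were all below 0. Mir23b had 387 and 374 counts in Lenti-GFP and 267 and 269 in Lenti-AS, with groups that did not overlap and a log2 fold change of -0.29 ± 0.16 (edgeR adjusted p = 0.350). Mir27b had 435, 406, 355 and 325 counts and a log2 fold change of -0.10 with a 95% interval from -0.45 to 0.26. Mir3074, described above, lies at this locus on the opposite strand, over the hairpin of Mir24-1, which encodes the same mature miR-24 as Mir24-2. The hairpins of Mir3074 and Mir24-1 share 68 bases, and Mir24-1 had 0 counts in every sample. Npepo itself had 65.0 and 59.8 CPM in Lenti-GFP and 51.3 and 56.1 CPM in Lenti-AS, a log2 fold change of -0.22 ± 0.08 (edgeR adjusted p = 0.207). The difference between the Mir24-2 and Mir23b loci was not tested.

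Of the 8 hairpin pairs that overlap on opposite strands, this included, each had a partner row with 0 or 1 counts per sample, among them Mir3065 over Mir338, Mir3556a over Mir29a and Mir3554 over Mir31. The settings of the counting for strand and overlapping features are not given in the sources used here. The strand from which the reads of these rows came is therefore uncertain, and so is what the low counts of the partner rows mean.

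Mir6326 and Mir22 lie 142 bases apart on the same strand of chromosome 10. Mir6326 had 14 and 9 counts in Lenti-GFP and 28 and 19 in Lenti-AS, which is 0.123 ± 0.039 CPM against 0.286 ± 0.047 CPM (SD, n = 2 each). Its groups did not overlap, and its log2 fold change was 1.22 ± 0.45 (edgeR adjusted p = 0.198), whereas that of Mir22 was below 0. Other neighbouring rows had few counts: Mir99a had 38, 15, 55 and 41 counts, with a log2 fold change of 1.05 ± 0.48 (0.53 without Lenti-GFP replicate 2 and 1.89 without Lenti-GFP replicate 1), beside Mirlet7c1 at 0.10 ± 0.39. In the miR-17 to miR-92 gene, Mir18a, Mir19a and Mir20a had 2 to 22 counts per sample and log2 fold changes from -0.41 to 0.17.

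**Figure D4:**
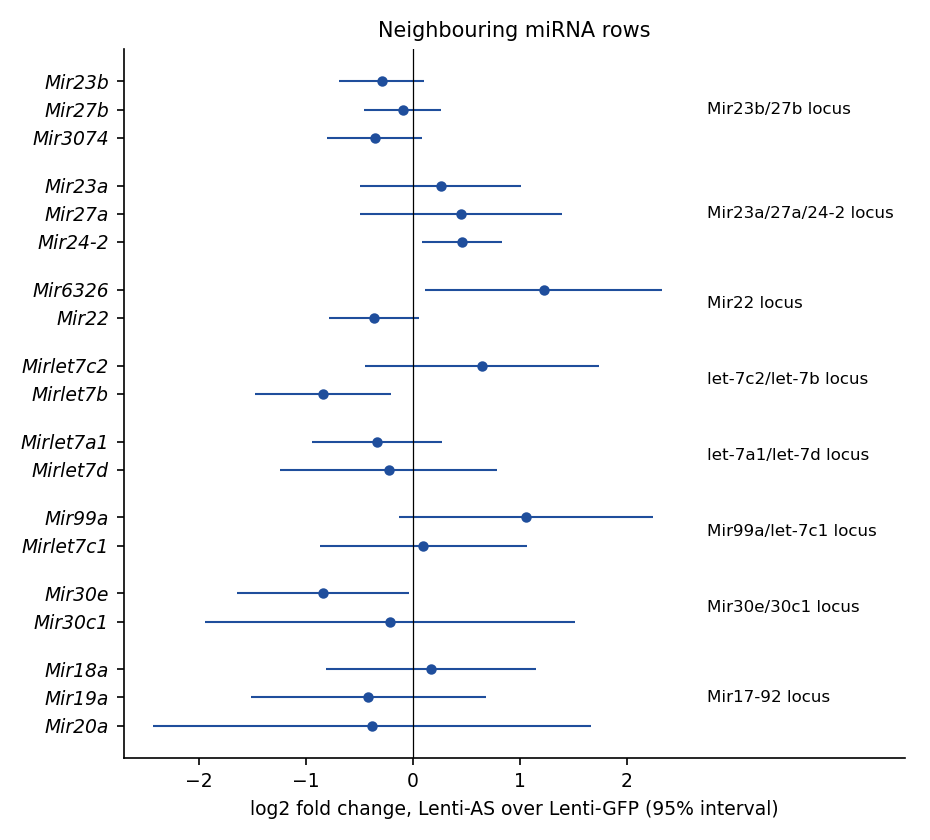
Log2 fold change, Lenti-AS over Lenti-GFP, with its 95% interval for miRNA rows that neighbour each other in RefSeq, grouped by locus. Rows of the Mir23b locus are below 0 and rows of the Mir23a locus above 0 (Mir23a at -0.02 without Lenti-AS replicate 2), but only the intervals of Mir24-2, Mir6326, Mirlet7b and Mir30e leave out 0.

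Of the 90 rows, 65 lie within the span of another RefSeq gene, and 39 of these within a gene that was tested. With 2 such genes each for Mir301a and Mirlet7g, this made 41 pairs and 37 genes, of which none was called by edgeR and 11 had an unadjusted p under 0.05. Over all genes tested with edgeR, 1.98% were called and 21.8% had an unadjusted p under 0.05. Their log2 fold changes ran from -0.26 (Wwp2, a ubiquitin ligase gene) to 0.50 (Mgrn1, also a ubiquitin ligase gene) and, beyond these, 1.53 (Prr11), with a median of -0.01. Row and spanning gene had the same sign in 27 of 41 pairs, and in 23 of the 31 pairs on the same strand. These pairs are not independent, since Npepo stands in those of Mir3074, Mir23b and Mir27b. Some signs also rest on small values, such as -0.01 for Ska2, and the share was not tested. The 95% interval of the row held the value of the spanning gene in 38 of 41 pairs, and the exceptions were Mir93 with Mcm7, Mir30e with Nfyc and Mir301a with Prr11. The row intervals were wide, with a median standard error of 0.42 over the miRNA rows, and all spanning genes but Prr11 lay between -0.26 and 0.50. This count therefore cannot tell whether row and gene changed alike.

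Mir301a had 22 and 39 counts in Lenti-GFP and 29 and 32 in Lenti-AS, with overlapping samples and a log2 fold change of 0.22 ± 0.42. Prr11, which spans it on the opposite strand, had 0.836 and 0.739 CPM in Lenti-GFP and 3.43 and 1.10 CPM in Lenti-AS, a log2 fold change of 1.53 ± 0.53 (edgeR adjusted p = 0.175) with unlike Lenti-AS samples. Ska2, a gene of the mitotic spindle that spans it on the same strand, stood at -0.01 ± 0.07.

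Mir93 lies in Mcm7, which encodes a subunit of the replicative helicase. It had 1 and 5 counts in Lenti-GFP and 17 and 10 in Lenti-AS, and passed the minimum only through Lenti-AS, so that a difference was partly set by the rule. Its log2 fold change was 2.32 ± 0.75 (edgeR adjusted p = 0.158), and it was 1.62 without Lenti-GFP replicate 1 and 3.77 without Lenti-GFP replicate 2. Settings other than leaving out a sample gave adjusted p-values from 0.0207 to 0.259, the lowest from edgeR's likelihood ratio test, which called this row and 4.19% of all genes. Mcm7 had 105 and 98.3 CPM in Lenti-GFP and 105 and 110 CPM in Lenti-AS, a log2 fold change of 0.08 ± 0.06. The related rows with its seed, Mir20a and Mir20b, were both below 0, but Mir20a stood at 0.46 without Lenti-AS replicate 1.

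Mir30e lies within the span of Nfyc, which encodes a subunit of the transcription factor NF-Y. It had 53 and 58 counts in Lenti-GFP and 33 and 21 in Lenti-AS, with groups that did not overlap and a log2 fold change of -0.84 ± 0.33 (edgeR adjusted p = 0.217). Nfyc had 38.7 and 41.1 CPM in Lenti-GFP and 44.3 and 44.1 CPM in Lenti-AS, a log2 fold change of 0.15 ± 0.07. Of the 6 rows that are named for miR-30 or share its seed 4 were below 0, and their summed level was 1.53 and 1.54 CPM in Lenti-GFP and 1.36 and 1.16 CPM in Lenti-AS. Among these rows only Mir30e kept its sign whichever sample was left out. Mir30b was among the rows above 0, with 11, 11, 18 and 7 counts and a log2 fold change of 0.37 ± 0.56.

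Mir1956 lies in Eif4e, the gene of the mRNA cap-binding protein. It had 77 and 105 counts in Lenti-GFP and 55 and 41 in Lenti-AS, and its log2 fold change of -0.72 ± 0.29 (edgeR adjusted p = 0.225) stood beside -0.05 ± 0.07 for Eif4e. Mir3064 lies in Ddx5, the gene of a helicase of the Drosha complex, which had 1717 and 1705 CPM in Lenti-GFP and 1535 and 1495 CPM in Lenti-AS, a log2 fold change of -0.18 ± 0.05 (edgeR adjusted p = 0.137). Mir204 lies in the channel gene Trpm3 and had 383, 443, 348 and 407 counts. Its log2 fold change was 0.09 with a 95% interval from -0.38 to 0.57, beside 0.14 ± 0.06 for Trpm3, and its samples overlapped.

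**Figure D5:**
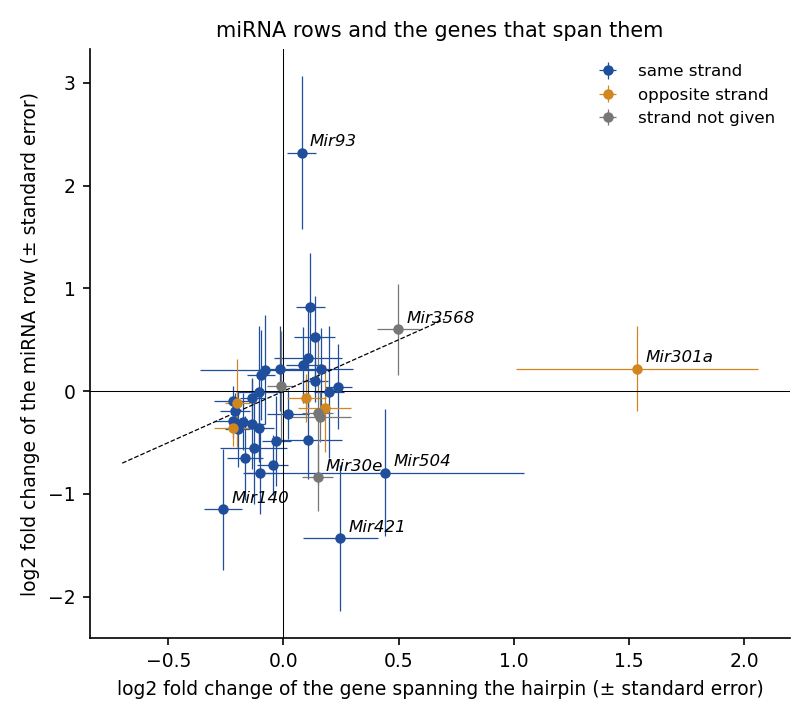
Log2 fold change, Lenti-AS over Lenti-GFP, of the 39 miRNA rows (vertical axis) and of the 37 tested genes that span them (horizontal axis), as 41 pairs, each ± its standard error; colours give the relative strand and the dashed line marks equal values. Apart from Prr11 at 1.53, paired with Mir301a, the genes lie between -0.26 and 0.50, and the rows reach from -1.43 to 2.32. The rows at these ends, Mir421 and Mir93, each passed the count minimum through 1 group only.

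A list of 35 names of miRNAs described in SCs, searched also without hyphens, matched 33 rows, of which 16 were tested and none was called. Only Mirlet7b had an unadjusted p under 0.05, and 4 of the 16 were above 0 and 12 below (median -0.22). Over all genes tested with edgeR, 1.98% were called, 21.8% had an unadjusted p under 0.05 and 48.7% lay below 0. Of the 90 miRNA rows, 60.0% lay below 0. Mir21, an injury-associated miRNA gene, had 338 and 307 counts in Lenti-GFP and 227 and 238 in Lenti-AS, with groups that did not overlap and a log2 fold change of -0.25 ± 0.18 (edgeR adjusted p = 0.451). Mir140 had 18 and 16 counts in Lenti-GFP and 4 and 9 in Lenti-AS, having passed through Lenti-GFP only. Mir34a had 19, 16, 11 and 24 counts. A count of 0 in every sample was found for 11 rows of the list, among them Mir338, Mir29a, Mir210, Mir182 and Mir146a. Over so short a window this does not show that the gene was silent. The hairpins of Mir338 and Mir29a also lie wholly within those of Mir3065 and Mir3556a on the opposite strand, and how the counting treated such overlaps is not given.

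Genes of miRNA biogenesis were measured at higher counts. Of 30 names, 24 were tested and none was called, with 6 at an unadjusted p under 0.05, 14 above 0 and 10 below (median 0.09). The shares over all genes were 1.98% called and 21.8% at an unadjusted edgeR p under 0.05. Drosha, the nuclear nuclease, had 27.6 and 29.5 CPM in Lenti-GFP and 34.7 and 33.3 CPM in Lenti-AS, a log2 fold change of 0.25 ± 0.07 (edgeR adjusted p = 0.124). The groups of Drosha did not overlap. Its partner Dgcr8 stood at -0.16 ± 0.13 with overlapping samples, the exporter Xpo5 at 0.12 ± 0.06 and the Argonaute gene Ago2 at 0.18 ± 0.09, and none passed the test. Dicer1 was not analysed here. Adar, which encodes an RNA editing enzyme that also acts on primary miRNAs, was nearest to the threshold, with 17.6 and 19.2 CPM in Lenti-GFP and 25.1 and 24.1 CPM in Lenti-AS. Its log2 fold change was 0.42 ± 0.08 with an edgeR adjusted p of 0.0594. Adar was called by DESeq2 (adjusted p = 0.00324), which called 5.04% of all genes. Adar is named here after its values were seen.

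Rows at the edge of the count minimum show how little separates rows kept from rows left out. Just inside were Mir150 with 10, 10, 9 and 5 counts in Lenti-GFP 1 and 2 and Lenti-AS 1 and 2, Mir19b2 with 10, 13, 10 and 5, and Mir30c1 with 12, 7, 4 and 10. Just outside were Mir101a with 9, 18, 8 and 5 counts, Mir194-1 with 4, 8, 9 and 12, and Mir3596c with 14, 9, 3 and 0.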

How the data were processed

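RNA-seq counts of 4 samples of rat SCs were used, 2 given Lenti-GFP and 2 given Lenti-AS, mapped to groups from the labels. The authors deposited whole-number counts per gene, not normalized and not filtered, from reads aligned to rn6 and counted with featureCounts on RefSeq exons. The aligner is hisat2 in the methods and GSNAP in the submitters' processing notes, and the settings for strand, overlapping features and reads with several matches are not given in the sources used here. A repeated header row was dropped. No row of the Egr2-AS was used, so its level did not check the labels.

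The 12446 genes that reached 10 counts in 2 or more samples were fitted with edgeR 4.0.16 in R 4.3.3 (TMM factors, glmQLFit, glmQLFTest), after the code had been tested on simulated data. Benjamini-Hochberg adjustment ran over all of these genes. CPM use TMM-scaled library sizes, standard errors come from the F statistic and 95% intervals from its degrees of freedom. The biological coefficient of variation was 12.1%. An exact permutation test of 2 against 2 samples has 0.333 as its smallest two-sided p. Other settings were DESeq2 1.42.0, limma-voom (limma 3.58.1), the likelihood ratio test, other scalings and filters, a replicate block and leaving out each sample.

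RefSeq tables of build GRCr8 matched 89 of the 90 rows and gave sequences, neighbours and spanning genes, whose order may differ in rn6. A count over a short window holds counting error as well as the spread between samples. The rows and gene lists were chosen with earlier results of these data known. The rows named were the 8 with the highest mean CPM, the 5 in each direction with the largest change among those with a mean of at least 50 counts and groups that do not overlap (3 were found higher), the 5 with the smallest p, rows from the SC list, rows at the count minimum, neighbours and spanning genes, rows sharing a locus or seed, and 5 biogenesis genes. Mir1949, Mir3556a, Mir3065, Mir3554, Mir301a with Prr11 and Ska2, and Egr2 were named after their values were seen.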

Additional observations from a re-analysis of the deposited data

How the results depend on the processing

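Precision is limited by counts: the median standard error was 0.18 (log2) for rows with a mean of at least 200 counts and 0.53 for rows under 20. No miRNA row was called under RLE or upper-quartile factors, library totals, DESeq2, limma-voom, no filter on low counts or filterByExpr. The likelihood ratio test called 1 higher, Mir93, and 4.19% of all genes. Leaving out 1 sample gave 0 to 1 rows called higher (Mir339 without Lenti-AS replicate 1, Mir93 without Lenti-AS replicate 2) and 0 to 3 called lower (Mir1949 without Lenti-AS replicate 1, and Mir3064, Mir3074 and Mir186 without Lenti-AS replicate 2). These settings leave a single Lenti-AS sample, assumed to vary like the Lenti-GFP pair, and called 841 (6.76%) and 1519 (12.2%) of all genes. The median of the rows was -0.11 with limma-voom and ranged from -0.15 to -0.01 when 1 sample was left out, with -0.0129 without Lenti-AS replicate 1, where 45 of 90 rows were below 0. Of the biogenesis genes, 1 (Adar) was called higher with library totals, DESeq2, the likelihood ratio test or an adjusted p under 0.1, and 0 to 3 when 1 sample was left out (Adar without Lenti-AS replicate 1, and Ago1, Khsrp and Adar without Lenti-AS replicate 2). Over all genes and with all 4 samples, library totals called 286 and DESeq2 called 627 (5.04%), against 246 in the main fit. With 1 sample left out, the log2 fold change of Mir92b ranged from -0.0641 (without Lenti-GFP replicate 2) to 0.1199, that of Mir3064 from -0.7528 to 0.0553 (without Lenti-AS replicate 1) and that of Mir204 from -0.1444 (without Lenti-AS replicate 2) to 0.3028, so their signs changed. The cause was not tested. With the replicate block, 0 rows were called, their smallest adjusted p was 0.234 and their median -0.13, and 17 of all genes were called against 246 without it. No source ties a replicate number to a shared culture or day, and the deviations of samples with the same number had a correlation of -0.018.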
